A study of Homo sapiens with 6 samples.

Results

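Voltage-gated calcium, sodium and potassium channel genes, with the other potassium channels, were examined in RNA of liver cancer cells with and without a guide against RFX6. The genes were chosen by name and by level. A row of the count table was taken when its symbol began with CACNA, CACNB, CACNG or KCN, or with SCN and a digit, had no hyphen, and held 60 or more counts over the 6 libraries together. Of 107 rows with such names among 16720 named rows, 46 met the level and 61 did not. Of the 61, 41 held 10 counts or fewer over all 6 libraries. The 46 genes are those expressed enough to be counted, and the choice used the summed counts of both groups, so a gene seen in one group alone could enter only through that group.

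Ion channels let a chosen ion cross a membrane down its gradient. Voltage-gated channels open when the membrane potential changes. Their pore subunits select the ion, and auxiliary subunits set trafficking and gating. Potassium channels of the inward rectifier and tandem-pore (K2P) families stay open near the resting potential and hold it negative, whereas calcium-activated potassium channels open when intracellular calcium rises. These families are best known from nerve, muscle and secretory cells. Epithelial cells such as hepatocytes use several of them, mainly potassium channels, for volume control and transport.

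RNA-seq counts were available for 3 sgControl and 3 sgRFX6 libraries, both labelled as the hepatocellular carcinoma line Hep3B, the former with a wild-type genotype and the latter with RFX6 knocked out. RFX6 is a winged-helix transcription factor, and its guide was delivered with Cas9 by a lentiviral lentiCRISPRv2 vector, followed by puromycin selection. The study's methods describe picking and growing colonies that each came from a single cell, so a difference between clones and an effect of the guide cannot be told apart here. The control columns of the table are named for Cas9 alone and the others for guide sg3, and no label says that the replicates were separate cultures, so p-values measure only the spread between these libraries. Library totals ran from 16730386 to 25070793 counts, and 3 counts corresponded to 0.122 to 0.189 CPM, the unit of counts brought to one common library size, here with TMM factors. At this depth, levels below that were not separable from 0.

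RFX6 itself had 117, 144 and 170 reads in sgControl against 69, 59 and 77 in sgRFX6. The groups did not overlap, but the difference did not pass the test (log2 fold change -0.82, standard error 0.26, edgeR adjusted p = 0.142). It passed in 2 of 18 alternative fits, which called 25.2% and 31.1% of all tested genes. These were edgeR without sgControl library 2 and sgRFX6 library 3 (-0.87, adjusted p = 0.0345) and limma-voom with quality weights per sample (-0.96, adjusted p = 0.00274). With each single library left out, the edgeR adjusted p of RFX6 was 0.128 to 0.505. A guide changes the DNA and need not remove the transcript, so the transcript level is a weak check of the label. The study reports that it checked RFX6 knockout in its cells by real-time PCR and western blotting. The label Hep3B was met in part. The hepatic regulator HNF4A was counted at least 2114 times in every library. AFP and GPC3, which Hep3B is known to make in quantity, reached only 39 to 353 and 7 to 30 counts. sgControl library 2 and sgRFX6 library 3 stood apart from the other libraries of their groups, and the difference between sgRFX6 libraries 3 and 1 followed transcript GC content (Spearman correlation across genes -0.84, genes not being independent replicates). Among the controls this correlation was 0.5 for library 2 minus 1, 0.54 for 3 minus 1 and -0.28 for 3 minus 2. Values without both libraries are given where they change the call or direction of a gene named by the rule stated with the processing.

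Of these channel genes, 6 changed between the groups, 3 in each direction, and the others did not pass the test. KCNMB4, KCNK3 and CACNA1S fell in sgRFX6, and KCNK6, KCNQ3 and KCNK1 rose. On the log2 scale the falls were -2.71 to -3.89 and the rises 0.92 to 1.48. The groups were tested over the 12839 genes that passed the filter on low counts, by the quasi-likelihood method of edgeR, with p-values adjusted by the Benjamini-Hochberg method over all of them and a threshold of 0.05. CACNA2D2 did not pass that filter, which left 45 channel genes. The 6 calls are 13.3% of the 45, beside 3.74% of all tested genes (1.92% rose and 1.81% fell). CACNA1S and KCNK3 met the limit of 60 counts mainly through sgControl, where they are high, so this share is a description and nothing is read from it. An unadjusted p under 0.05 was found for 16 channel genes. The share of all tested genes at that threshold is not given here, so nothing is read from this number or from such numbers below.

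**Figure D1:**
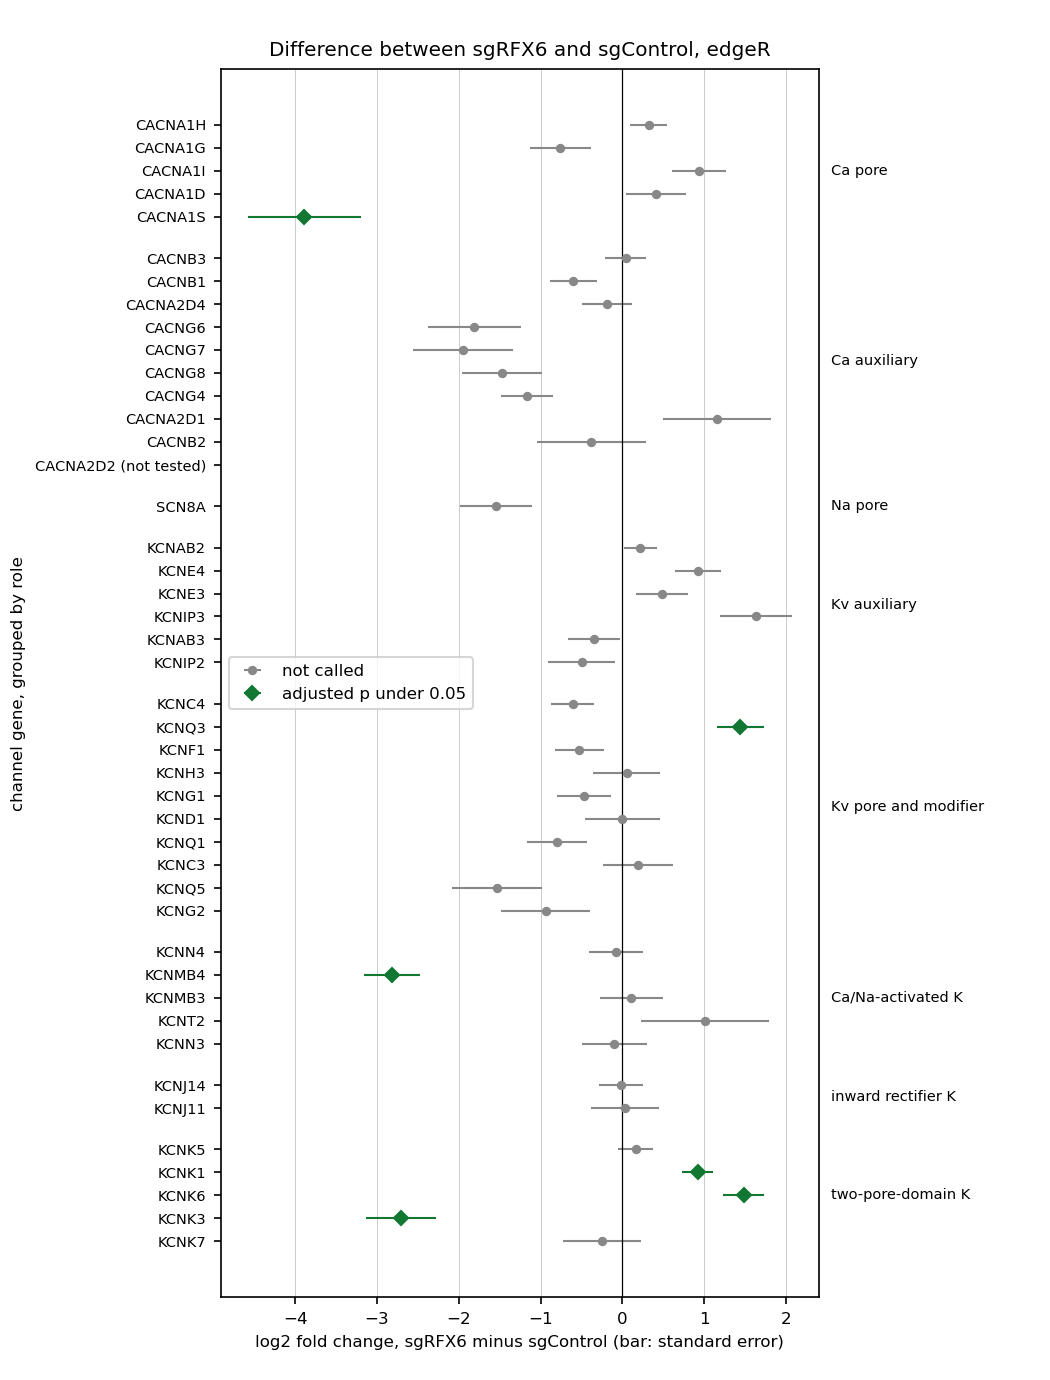
Log2 fold change of sgRFX6 against sgControl (horizontal axis) for 43 of the tested channel genes, grouped by role, with CACNA2D2 listed as not tested and with bars for the standard error from edgeR. Green diamonds mark the 6 genes with an adjusted p under 0.05, which lie at -3.89, -2.82 and -2.71 on one side and at 0.92, 1.44 and 1.48 on the other, and grey points mark the genes that did not pass.

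Over the 45 genes the log2 fold changes ran from -3.89 to 1.63, with 18 positive and 27 negative and a median of -0.14, beside 0.02 over all tested genes. The sgRFX6 libraries all lay below the lowest control for 11 channel genes, beside 11.2% of all tested genes, and all above the highest control for 6, beside 12.0%. For a single gene an exact permutation test on 3 libraries against 3 cannot give a two-sided p under 0.1. The choice of 60 counts admitted a few genes with little margin. Just inside it were CACNA1S with 61 counts and CACNA2D2 with 62, and just outside it were KCNAB1 with 57, KCNH2 with 52 and CACNA1A with 51.

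**Figure D2:**
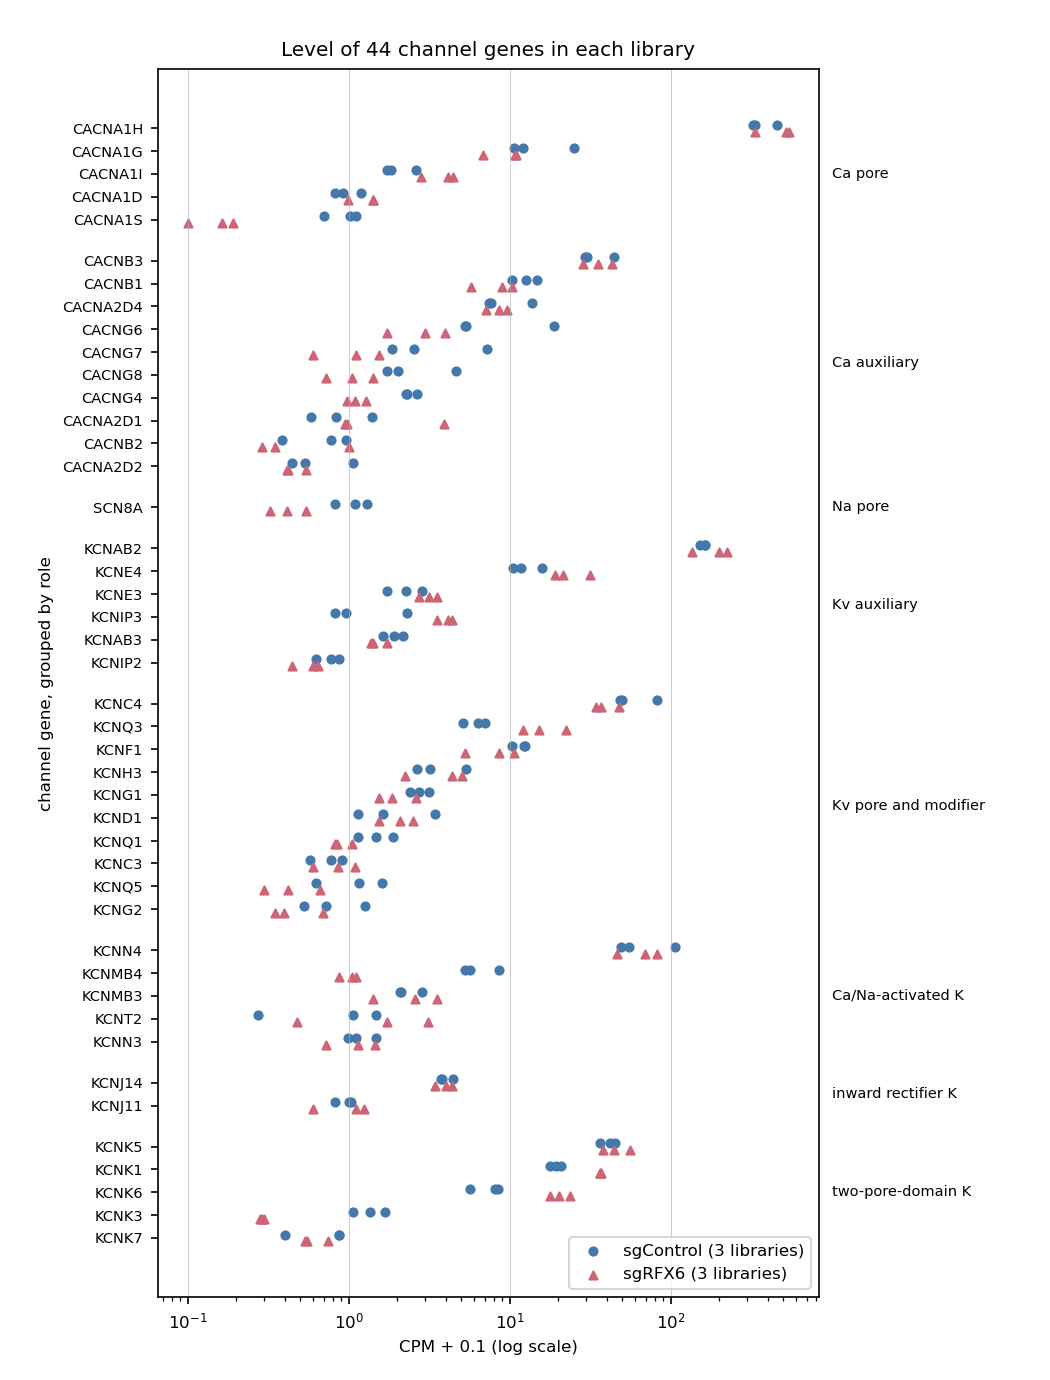
Level of 44 of the channel genes in each library, as CPM plus 0.1 on a log axis, with circles for the 3 sgControl and triangles for the 3 sgRFX6 libraries, grouped by role and ordered by mean level. The levels span from 0 CPM for CACNA1S to 543 CPM for CACNA1H, both in sgRFX6 library 1, and for most genes the circles and triangles mix.

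The K2P family held 3 of the 6 calls, in both directions, among 5 tested genes, beside 3.74% called among all genes. KCNK3 met the limit on summed counts mainly through sgControl, where it is high, and the family was singled out with its calls known. The share of calls in this family is therefore a description, and nothing is read from it. Of the 11 K2P rows, 5 were channel genes as chosen here. Of these, KCNK1 and KCNK6 rose, KCNK3 fell, and KCNK5 and KCNK7 did not pass. K2P channels carry the background potassium current of resting cells. KCNK1 and KCNK6 encode the weakly conducting TWIK branch of the family and KCNK3 encodes an acid-sensitive TASK channel.

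KCNK1 (chromosome 1 of GRCh38, 233614004 to 233672512) was counted 402, 510 and 411 times in sgControl and 731, 585 and 796 times in sgRFX6. Scaled to library size these are 19.4, 20.7 and 17.7 CPM against 36.3, 36.8 and 36.2 CPM. The 3 sgRFX6 libraries were almost level and well above all 3 controls, with means of 19.3 ± 1.46 and 36.4 ± 0.317 CPM (SD, n = 3 each). The log2 fold change was 0.92 (standard error 0.19, edgeR adjusted p = 0.0304). The size varied little between fits, from 0.85 to 0.99, but the call did not survive leaving out any library other than sgRFX6 library 3. It was lost without sgControl library 1 (adjusted p = 0.132), 2 (0.0543) or 3 (0.174), and without sgRFX6 library 1 (0.139) or 2 (0.0994).

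KCNK6 (chromosome 19, 38319844 to 38332076) was read 116, 207 and 185 times in the controls and 408, 377 and 387 times with the RFX6 guide. These are 5.59, 8.38 and 7.99 CPM against 20.3, 23.7 and 17.6 CPM, so that the lowest sgRFX6 library was above the highest control by more than the spread in either group. The means were 7.32 ± 1.51 and 20.5 ± 3.06 CPM (SD, n = 3 each) and the log2 fold change 1.48 (standard error 0.25, edgeR adjusted p = 0.0145). It was 1.69 (adjusted p = 0.00144) when sgControl library 2 and sgRFX6 library 3 were both left out. Leaving out sgControl library 1 (adjusted p = 0.0621) or 3 (0.0690), or sgRFX6 library 1 (0.0637) or 2 (0.0518), took the adjusted p just over the threshold.

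KCNK3 (chromosome 2, 26692690 to 26733420) was a low gene that moved the other way. It was counted 20, 39 and 29 times in sgControl and 4, 3 and 4 times in sgRFX6, or 0.964, 1.58 and 1.25 CPM against 0.199, 0.189 and 0.182 CPM. The sgRFX6 libraries were thus at or just above the level of 3 counts, and the groups were far apart. The log2 fold change was -2.71 (standard error 0.43, edgeR adjusted p = 0.0111), and the call was lost without sgControl library 3 (adjusted p = 0.0528) or sgRFX6 library 1 (0.0643).

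KCNK5, a K2P channel of transporting epithelia that is opened by alkaline conditions, was the most abundant K2P gene in CPM and did not pass. It gave 36.1, 45.0 and 42.0 CPM in sgControl and 44.1, 55.9 and 38.2 CPM in sgRFX6, with overlapping groups (log2 fold change 0.16, adjusted p = 0.805). KCNK7, for which no current of its own is known, lay at 0.302 to 0.771 CPM in sgControl and 0.440 to 0.646 CPM in sgRFX6 (log2 fold change -0.25, adjusted p = 0.888). Per kilobase of the longest annotated transcript, KCNK1 stood at 8.91 ± 0.676 CPM in sgControl and 16.8 ± 0.147 in sgRFX6, and KCNK5 at 10.9 ± 1.21 and 12.3 ± 2.41 (SD, n = 3 each). On that scale the order of the means of KCNK1 and KCNK5 differed between the groups, the KCNK1 mean being the lower in sgControl and the higher in sgRFX6.

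The promoters of the 3 changed K2P genes are shown because they are the members of one family that moved, in opposite directions, after a guide against a transcription factor. They run from 250 bases before to 50 after the start in RefSeq, on the plus strand of GRCh38.p14. Capitals mark the RFX half-site GTTGCC, read on either strand, so that GGCAAC is the same site on the other strand.
KCNK1 chr1:233613856-233614155: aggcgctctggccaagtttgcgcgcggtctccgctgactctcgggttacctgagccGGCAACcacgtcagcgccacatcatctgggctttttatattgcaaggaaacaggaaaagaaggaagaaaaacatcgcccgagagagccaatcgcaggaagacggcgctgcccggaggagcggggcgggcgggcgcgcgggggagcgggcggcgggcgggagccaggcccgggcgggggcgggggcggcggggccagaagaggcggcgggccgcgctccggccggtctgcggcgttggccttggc
KCNK6 chr19:38319595-38319894: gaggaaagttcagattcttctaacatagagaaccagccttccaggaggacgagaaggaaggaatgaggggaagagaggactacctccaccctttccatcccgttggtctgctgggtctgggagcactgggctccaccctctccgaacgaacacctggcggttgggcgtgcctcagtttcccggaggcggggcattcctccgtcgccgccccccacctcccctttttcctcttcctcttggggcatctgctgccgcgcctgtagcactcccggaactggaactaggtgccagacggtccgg
KCNK3 chr2:26692472-26692771: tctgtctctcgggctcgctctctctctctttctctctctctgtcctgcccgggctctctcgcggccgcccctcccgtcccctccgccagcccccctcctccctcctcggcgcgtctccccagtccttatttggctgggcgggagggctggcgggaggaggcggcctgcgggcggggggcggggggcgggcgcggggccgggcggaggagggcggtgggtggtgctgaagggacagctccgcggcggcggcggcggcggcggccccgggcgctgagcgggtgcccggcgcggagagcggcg
The promoter of KCNK1 has 1 half-site, which begins 194 bases before the start, and the windows of KCNK6 and KCNK3 have none. All 3 windows are rich in G and C, with 70.7% for KCNK1, 61.0% for KCNK6 and 78.7% for KCNK3. Promoters were found for 29 of the 46 genes. The half-site occurs in 5 of these 29 (CACNB3, CACNG6, KCNC4, KCNK1 and KCNMB3), or 17.2%, beside 12.2% of all 35116 promoters of the same length. The full palindrome GTTGCCNNGGCAAC, the X-box that RFX proteins bind, occurs in 0 of the 29 and in 0.0911% of all promoters, and it contains the half-site. These matches describe letters in a window and do not show binding.

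**Figure D3:**
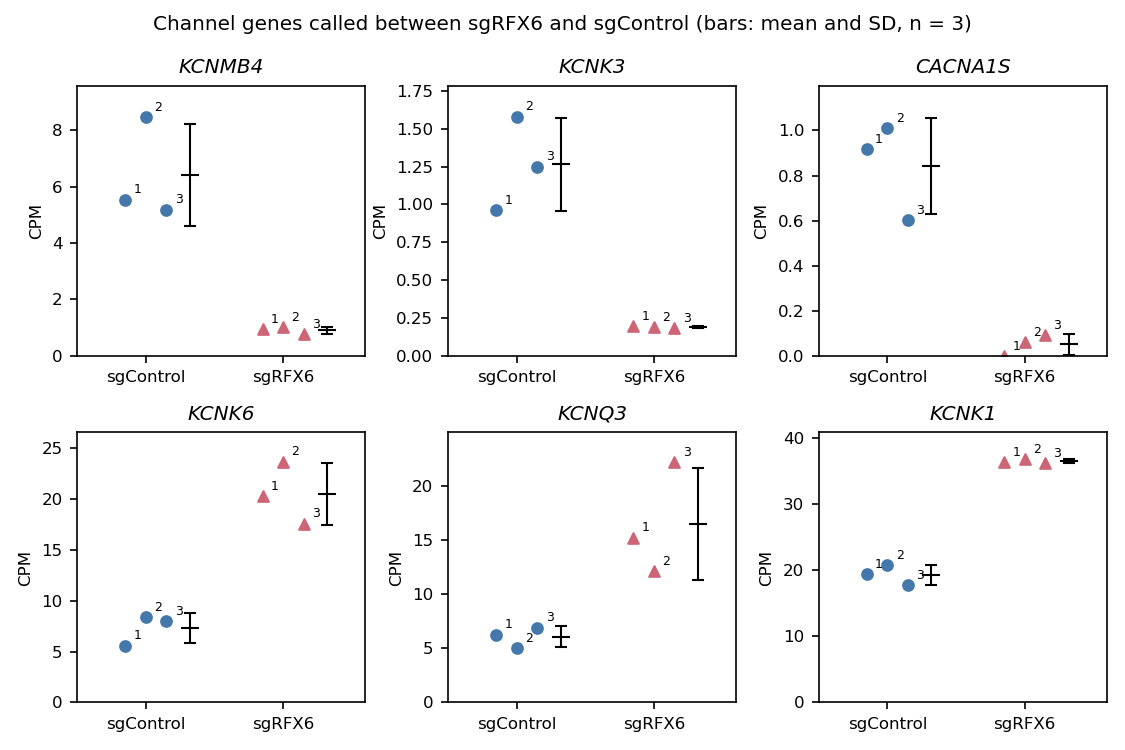
CPM in each library (numbered 1 to 3) for the 6 channel genes with an adjusted p under 0.05, with a short line for the mean and bars for the SD of 3 libraries. In every panel the 3 sgRFX6 triangles lie wholly below (KCNMB4, KCNK3 and CACNA1S) or wholly above (KCNK6, KCNQ3 and KCNK1) the 3 sgControl circles, and each vertical axis starts at 0.

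KCNMB4 was the channel gene whose change held in every fit. It encodes a beta subunit of the large-conductance calcium-activated potassium (BK) channel and is known mainly from the brain, where it slows the gating of the pore. The gene lies on chromosome 12 from 70366276 to 70434292. It was counted 115, 209 and 120 times in sgControl and 19, 16 and 17 times in sgRFX6. These are 5.54, 8.47 and 5.18 CPM against 0.944, 1.01 and 0.772 CPM, with means of 6.40 ± 1.80 and 0.907 ± 0.121 CPM (SD, n = 3 each). The highest sgRFX6 library was thus far below the lowest control. The log2 fold change was -2.82 (standard error 0.34, edgeR adjusted p = 0.00315), which is 0.142 times the control level. KCNMB4 passed in all 18 alternative fits run, with adjusted p-values from 2.08e-10 to 0.0196, and the 6 fits that each left out 1 library gave -2.92 to -2.56. Among its nearest 50 tested genes the median log2 fold change was 0.25, opposite in sign to that of KCNMB4.

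The other 4 members of the calcium- or sodium-activated potassium group did not pass. KCNN4, the intermediate-conductance channel of epithelia and blood cells, was the third most abundant channel gene, with 49.2, 106 and 54.9 CPM in sgControl and 82.6, 69.6 and 46.2 CPM in sgRFX6. The value of sgControl library 2 was the highest of the 6. The log2 fold change was -0.08 over all libraries and 0.55 without sgControl library 2 and sgRFX6 library 3 (adjusted p = 0.950 and 0.0209), so its direction rested on those libraries. KCNMB3, KCNT2 and KCNN3 had log2 fold changes of 0.11, 1.01 and -0.10 and overlapping groups. KCNMB3, another BK beta subunit, shares 37.9% of its exon sequence with PIK3CA on the opposite strand, and the counting is not stated to use strand, so its counts may include reads of PIK3CA.

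Among the voltage-gated potassium channels, KCNQ3 was the gene that changed. KCNQ3 forms the slow M-type potassium current of neurons together with partners such as KCNQ5. Of the 22 rows for pore and modifier subunits 11 were channel genes as chosen here, with a median log2 fold change of -0.47 and 8 of the 11 negative. KCNQ3 (chromosome 8, 132120858 to 132481019, minus strand) was counted 130, 124 and 160 times in sgControl and 306, 193 and 488 times in sgRFX6. The CPM were 6.26, 5.02 and 6.91 against 15.2, 12.1 and 22.2, and sgRFX6 library 3 was the highest of all. The means were 6.06 ± 0.958 and 16.5 ± 5.14 CPM (SD, n = 3 each), a log2 fold change of 1.44 (standard error 0.29, edgeR adjusted p = 0.0286). Without sgControl library 2 and sgRFX6 library 3 it was 1.05 (adjusted p = 0.00827). The call was lost without sgControl library 1 (adjusted p = 0.0873), 2 (0.0895) or 3 (0.105) or sgRFX6 library 1 (0.0860), and when libraries were scaled by their totals alone (0.0509).

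The other KCNQ genes had negative fold changes and did not pass. KCNQ5, a partner of KCNQ3, was counted 22, 13 and 35 times in sgControl and 4, 9 and 7 times in sgRFX6. One sgRFX6 library, at 0.566 CPM, lay above the lowest control, at 0.527 CPM, so the groups touched (log2 fold change -1.53, standard error 0.55, adjusted p = 0.207, or -1.80 and 0.0406 without sgControl library 2 and sgRFX6 library 3). KCNQ1, the epithelial and cardiac member, lay lower in every sgRFX6 library, at 0.727 to 0.943 CPM against 1.05 to 1.78 CPM (log2 fold change -0.80, adjusted p = 0.348). KCNC4, a fast-inactivating channel and the highest of the pore group in CPM, gave 49.9, 82.7 and 48.5 CPM in sgControl and 47.6, 37.1 and 34.1 CPM in sgRFX6, again without overlap (log2 fold change -0.61, adjusted p = 0.295). KCNF1, a silent subunit that modifies other channels, had -0.53 (adjusted p = 0.451).

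Of the 6 auxiliary subunits of voltage-gated potassium channels, 4 had positive log2 fold changes, with a median of 0.35, and none passed the threshold. KCNIP3, a calcium-binding partner of A-type channels, was counted 15, 54 and 20 times in sgControl and 82, 68 and 76 times in sgRFX6. In CPM this is 0.723, 2.19 and 0.863 against 4.07, 4.27 and 3.45, and sgControl library 2 was the control nearest to the sgRFX6 libraries. The log2 fold change of 1.63 (standard error 0.44) had an edgeR adjusted p of 0.0924, and without sgControl library 2 it was 2.29 (adjusted p = 0.0163). Without sgControl library 2 and sgRFX6 library 3 it was 2.38 (adjusted p = 0.0017). KCNIP3 passed in 7 of 18 alternative fits. KCNE4, a single-pass subunit that inhibits KCNQ1 channels, gave 10.4, 11.7 and 15.8 CPM in sgControl and 21.3, 31.7 and 19.0 CPM in sgRFX6. Its groups did not overlap, its log2 fold change was 0.92 (adjusted p = 0.127), and it passed in 4 of 18 alternative fits, among them that without sgControl library 2 and sgRFX6 library 3 (1.01, adjusted p = 0.0203). KCNAB2, a beta subunit related to aldo-keto reductases, was the second most abundant channel gene, with means of 160 ± 6.16 in the controls and 186 ± 45.3 CPM with the RFX6 guide (SD, n = 3 each; log2 fold change 0.22, adjusted p = 0.706). The latter values were 0.42 and 0.0281 without sgControl library 2 and sgRFX6 library 3.

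**Figure D4:**
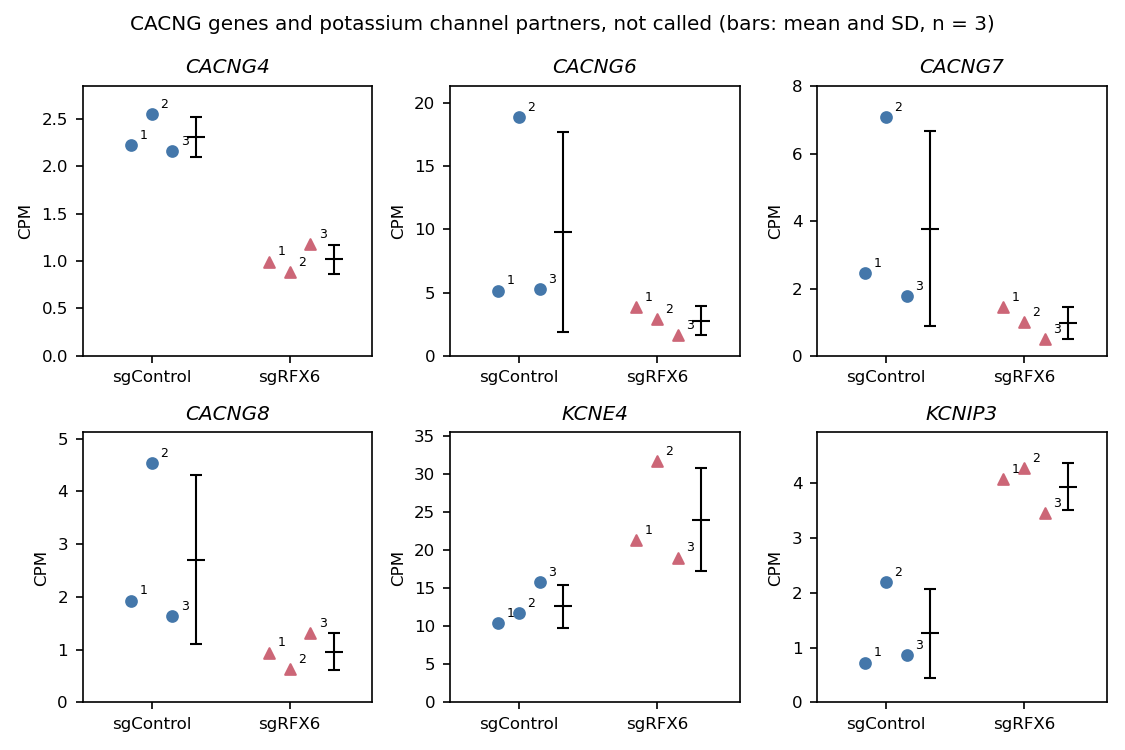
CPM in each library (numbered 1 to 3) for 4 CACNG genes and for KCNE4 and KCNIP3, with a short line for the mean and bars for the SD of 3 libraries. All 6 genes have groups that do not overlap and an adjusted p over 0.05, and sgControl library 2 lies far above the other controls for CACNG6, CACNG7 and CACNG8.

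Of the calcium channel pore subunits 5 of 9 rows were channel genes as chosen here, and CACNA1S was the one that changed. CACNA1S encodes the L-type pore that couples excitation to contraction in skeletal muscle. It lies on chromosome 1 from 201039512 to 201112566, on the minus strand. It was counted 19, 25 and 14 times in sgControl and 0, 1 and 2 times in sgRFX6, or 0.916, 1.01 and 0.604 CPM against 0, 0.0628 and 0.0908 CPM. All 3 sgRFX6 libraries were thus below the level of 3 counts. The summed counts of 58 and 3 give a level 16.4 times lower in sgRFX6 after scaling, with a 95% exact interval from 5.33 to 81.6 that covers counting error only. The edgeR adjusted p was 0.0176 (log2 fold change -3.89, standard error 0.69), and it was 0.0636 without sgRFX6 library 1 and 0.0575 without sgRFX6 library 2. Of 9 muscle and cardiac marker genes in the table, 6 were at 3 counts or fewer in every library, and the list summed to 0.648 to 3.24 CPM in sgControl and 0.636 to 1.01 CPM in sgRFX6.

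CACNA1H had the highest mean of the channel genes in CPM and per kilobase, and per kilobase its lead over KCNAB2 was within 1 SD of CACNA1H in either group. It encodes a low-voltage-activated T-type calcium channel. It gave 336, 457 and 327 CPM in sgControl and 543, 524 and 335 CPM in sgRFX6, and per kilobase 45.5 ± 8.88 and 56.9 ± 14.0 CPM (SD, n = 3 each). The groups overlapped through sgRFX6 library 3, and the log2 fold change of 0.32 did not pass (adjusted p = 0.589). Without sgControl library 2 and sgRFX6 library 3 it was 0.69 (adjusted p = 0.00253). The median over its nearest 50 tested genes was 0.34, and after that regional median was removed the value was -0.02, so the direction of CACNA1H depended on the correction. The other T-type genes differed in sign. CACNA1I stood at 2.51, 1.62 and 1.73 CPM in sgControl and at 4.07, 4.34 and 2.73 CPM in sgRFX6, without overlap (log2 fold change 0.93, adjusted p = 0.207, or 0.99 and 0.0402 without sgControl library 2 and sgRFX6 library 3). CACNA1G stood at 10.6, 25.1 and 12.1 CPM and 10.8, 10.7 and 6.77 CPM, with overlap (log2 fold change -0.76, adjusted p = 0.381). CACNA1D, an L-type pore of endocrine and pacemaker cells, had 0.41 (adjusted p = 0.688).

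All 4 CACNG genes had lower values in every sgRFX6 library than in any control, a pattern seen in 11.2% of all tested genes, and none of them passed the test. CACNG4, CACNG7 and CACNG8 encode relatives of the calcium channel gamma subunit that also carry AMPA-type glutamate receptors to the membrane. CACNG6 is closer to the gamma subunit of the muscle channel. Their log2 fold changes were -1.17 for CACNG4, -1.81 for CACNG6, -1.95 for CACNG7 and -1.47 for CACNG8, with edgeR adjusted p-values of 0.0912, 0.144, 0.141 and 0.167. CACNG4 (chromosome 17, 66964910 to 67033398) was the steadiest of them, with 46, 63 and 50 reads in the controls and 20, 14 and 26 in sgRFX6. In CPM these are 2.22, 2.55 and 2.16 against 0.993, 0.880 and 1.18. CACNG4 passed without sgControl library 2 and sgRFX6 library 3 (log2 fold change -1.21, adjusted p = 0.0346).

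The other 3 CACNG genes lie side by side on chromosome 19, in the order CACNG7, CACNG8 and CACNG6, with gaps of 19098 and 2072 bases. CACNG6 was counted 107, 467 and 122 times in sgControl and 78, 46 and 36 times in sgRFX6. CACNG7 was counted 51, 175 and 41 times against 29, 16 and 11, and CACNG8 40, 112 and 38 times against 19, 10 and 29. In all 3 genes sgControl library 2 stood far above the other controls, at 3.63, 3.35 and 2.54 times their mean CPM for CACNG6, CACNG7 and CACNG8. Without sgControl library 2 and sgRFX6 library 3 the log2 fold changes were -0.61 for CACNG6, -0.77 for CACNG7 and -1.15 for CACNG8, with adjusted p-values of 0.112, 0.158 and 0.0611. CACNG6 and CACNG7 each passed in 4 of 18 alternative fits and CACNG8 in 1. After a correction of each library for GC content, 1 of those fits, CACNG6 and CACNG7 passed (adjusted p = 0.0400 and 0.0431).

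The remaining auxiliary calcium channel genes showed no call in the reported fit. CACNB3, a cytoplasmic beta subunit and the most abundant auxiliary gene of calcium channels, was level between the groups, with means of 34.6 ± 8.31 and 35.6 ± 7.52 CPM (SD, n = 3 each; log2 fold change 0.04, adjusted p = 0.968). CACNB1 lay lower in every sgRFX6 library (log2 fold change -0.60, adjusted p = 0.379). CACNA2D1, an alpha2delta subunit and the target of gabapentin, was counted 17, 14 and 84 times in sgRFX6, with sgRFX6 library 3 far above the rest, and its log2 fold change was 1.16 (adjusted p = 0.465). CACNA2D2, with 9, 24 and 8 reads in the controls and 9, 5 and 7 in sgRFX6, was not tested.

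Sodium channels were represented by few genes, and of 7 rows for pore subunits a single one met the level. SCN8A, a pore of neuronal sodium channels, was counted 25, 18 and 23 times in sgControl and 9, 5 and 5 times in sgRFX6. In CPM these are 1.20, 0.729 and 0.993 against 0.447, 0.314 and 0.227, with no overlap, a log2 fold change of -1.55 (standard error 0.44) and an edgeR adjusted p of 0.110. Without sgControl library 2 and sgRFX6 library 3 it was -1.49 (adjusted p = 0.0467). Inward rectifiers showed no difference larger than the spread between libraries. KCNJ14 lay at 3.66 to 4.32 CPM in sgControl and 3.36 to 4.27 in sgRFX6 (log2 fold change -0.02, adjusted p = 0.983), and KCNJ11, the pore of the channel that senses ATP, had 0.03 (adjusted p = 0.983).

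Levels of different genes were compared per kilobase of transcript. Averaged over the 6 libraries, CACNA1H had 51.2 CPM per kilobase, KCNAB2 40.5 and KCNN4 30.3. Among the next were CACNB3 (13.0), KCNK1 (12.9) and KCNK5 (11.6). Of these, CACNB3 and KCNK5 differed by less than the SD of CACNB3 in either group, whereas the KCNK1 mean lay below theirs in sgControl and above theirs in sgRFX6. KCNE4 (5.57), KCNF1 (4.30) and CACNG6 (3.39) were lower but still among the highest 10. Of the 6 called genes, KCNK1 was the single one among the highest 10. KCNK3 and CACNA1S, by contrast, averaged 0.118 and 0.0726 CPM per kilobase.

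**Figure D5:**
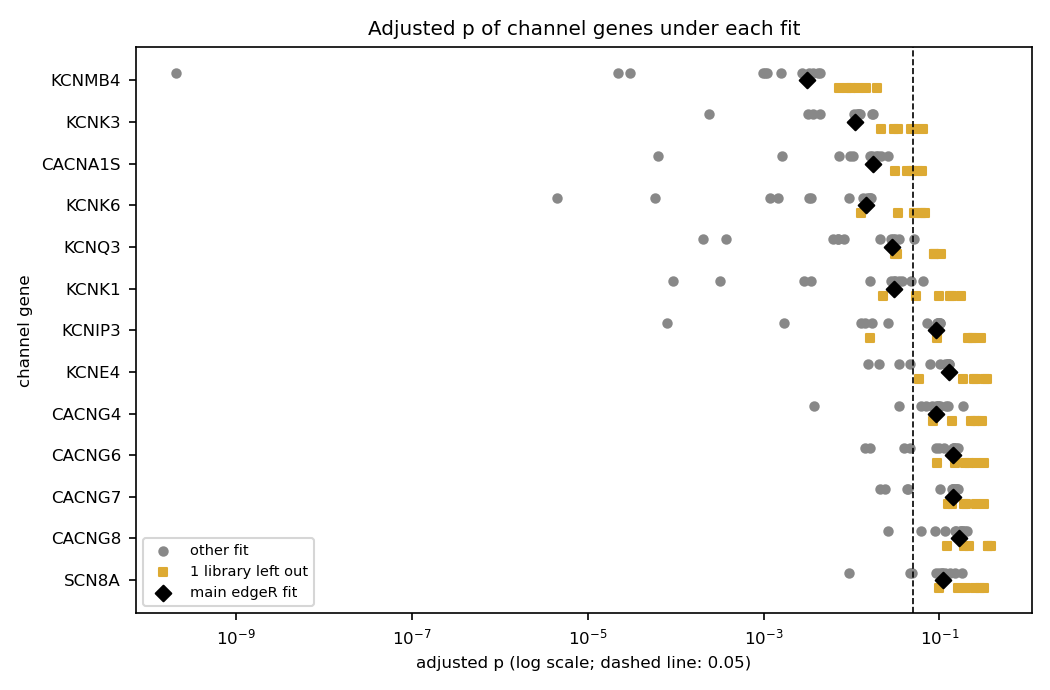
Adjusted p (horizontal log axis, dashed line at 0.05) of 13 channel genes in the reported edgeR fit (diamonds), in the other fits (circles) and in fits that each left out 1 library (squares). All points of KCNMB4 lie left of the line, the other 5 called genes each have squares on both sides, and the 7 genes not called have most of their points to the right.

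The number of calls differed between fits. Limma-voom with sample quality weights called 23 of the 45 channel genes, or 51.1%, beside 31.1% of all tested genes. Correction for GC content called 11, or 24.4%, beside 11.5% of all genes. With sgControl library 2 and sgRFX6 library 3 both left out, 16 of 44 tested channel genes passed, or 36.4%, beside 25.2% of all genes. The 6 genes called in the reported fit passed in each of these 3 fits. Beyond them, KCNIP3, KCNE4 and SCN8A passed in all 3. Most genes beyond the 6 that passed without both libraries did so in few fits. SCN8A passed in 3 of 17 alternative fits and KCNQ5 in 2 of 17. CACNG4, CACNA1I, CACNA1H, KCNAB2 and KCNN4 each passed in 2 of 18. CACNB2 passed with limma-voom and without both libraries.

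Genes that work beside the channels were read in the same fit. Of 161 genes in 8 lists of channel partners, other channels, pumps and exchangers, 147 were in the table and 98 were tested, of which 3 rose and 3 fell, beside the 3.74% called among all tested genes. No gene passed among 6 tested partners of sodium channels, 4 epithelial sodium or acid-sensing channels, 17 chloride channels, 18 TRP and related cation channels, or 21 genes of calcium stores, pumps and exchangers. By the unadjusted p under 0.05 these lists held 3, 1, 5, 5 and 2 genes, again without the share of all tested genes beside them. The sodium-potassium pump and cotransporter list held 4 of the 6 calls among its 14 tested genes, beside the same 3.74%.

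RIMBP2, which ties calcium channels to the release site of synapses, was the called gene among 9 tested calcium channel partners. It was counted 25, 24 and 36 times in sgControl and 0, 0 and 1 times in sgRFX6, a ratio of 71.9 with a 95% exact interval from 12.6 to 2870 for counting error only (edgeR adjusted p = 0.00401). RIMBP2 passed in each of 17 alternative fits. KCTD1, whose protein shares a domain with potassium channels, was the called gene among 9 tested potassium channel partners, with means of 16.6 ± 1.30 in the controls and 31.8 ± 2.72 CPM with the RFX6 guide (SD, n = 3 each). Its log2 fold change was 0.94 (adjusted p = 0.0362), and it passed in 1 of the 6 fits that left out 1 library, that without sgRFX6 library 3.

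In the pump list, SLC9A2 fell, and ATP1B2 and SLC9A3 rose. ATP1B2, a pump beta subunit, was counted 0, 5 and 0 times in sgControl and 25, 21 and 31 times in sgRFX6 (adjusted p = 0.0263). Leaving out sgControl library 1 or 3, or sgRFX6 library 1 or 2, took it to 0.0601, 0.0945, 0.0767 and 0.0640.

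The sodium-proton exchangers SLC9A2 and SLC9A3 moved in opposite directions. SLC9A2 averaged 83.3 ± 10.9 in the controls and 33.7 ± 11.4 CPM with the RFX6 guide (SD, n = 3 each; log2 fold change -1.31, adjusted p = 0.0257). SLC9A3 was at 0.667 ± 0.346 and 3.97 ± 2.49 CPM (log2 fold change 2.54, adjusted p = 0.0419). Both calls were lost without sgControl library 1 (adjusted p = 0.0789 for SLC9A2 and 0.109 for SLC9A3) or 3 (0.129 and 0.160) and without sgRFX6 library 1 (0.109 and 0.0850) or 2 (0.0849 and 0.115). SLC9A3 was also lost without sgControl library 2 (0.0586).

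Many of these channels are known from nerve and muscle, and markers of other cell types were therefore read. Neuronal and neuroendocrine markers had 0 calls among 9 tested genes by edgeR, with 1 at an unadjusted p under 0.05. SNAP25, CHGA and CHGB were at 3 counts or fewer in every library, but other markers of the list were well expressed. UCHL1 and TUBB3 averaged 493 and 149 CPM in sgControl and 464 and 166 CPM in sgRFX6. The list summed to 658 to 753 CPM in sgControl and 604 to 783 CPM in sgRFX6. Of 20 liver markers, all tested, AFP and AHSG rose and FGA and FGB fell, and the list summed to 7690 to 8590 CPM in sgControl and 5990 to 9450 CPM in sgRFX6. Most of that sum came from the keratins KRT8 and KRT18, with means of 6190 and 1470 CPM in sgControl and 6170 and 1400 in sgRFX6. By contrast, HNF4A averaged 151 and 126 CPM and ALB 20.2 and 22.0 CPM in sgControl and sgRFX6. Some fibroblast markers moved with the groups. Of 6 tested, COL1A1, COL1A2, COL3A1 and PDGFRA fell, beside 1.81% of all tested genes, DCN did not pass, and LUM did not pass at 16.8 to 24.9 CPM in the controls and 19.5 to 54.7 CPM with the RFX6 guide. In all, the list summed to 53.3 to 62.3 CPM in sgControl and 21.5 to 56.4 CPM in sgRFX6. Their part in the channel results was not tested. Islet, muscle, endothelial and immune lists had no calls by edgeR among 3, 1, 1 and 6 tested genes, with 2, 0, 0 and 2 at an unadjusted p under 0.05. In bulk RNA, fewer cells that make a transcript and less transcript per cell cannot be told apart.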

How the data were processed

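Total RNA, isolated with Trizol, was sequenced on the Illumina platform, and the authors deposited 1 table of raw counts per gene with 16721 rows and 6 columns, and the labels name GRCh38 (hg38). The aligner, the counting program, its use of strand and the test for the RNA-seq are not given in the sources used here. One row without a name (at most 9.17e-05% of a library) was left out. Columns were assigned by name, and the control columns, named for Cas9, were taken as sgControl.

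The counts were fitted with edgeR 4.0.16 in R 4.3.3 (filterByExpr with a minimum count of 10 and total of 15, TMM factors, quasi-likelihood test of sgRFX6 against sgControl over all 6 libraries, no covariates). The common biological coefficient of variation was 0.269. The test was also run on counts simulated without a GC trend or outlying libraries. That run does not check the calls under the conditions of these libraries, and nothing is read from it here. The fit was repeated with DESeq2 1.42.0, with limma-voom and quality weights per sample (limma 3.58.1), with RLE scaling or totals alone, robust dispersion, other filters, the replicate number as a block, corrections for GC content (smooth trend, span 0.3) and for the nearest 50 genes, and each library left out. A fit without sgControl library 2 and sgRFX6 library 3 was chosen after seeing the data.

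Gene positions, overlaps, lengths and GC content came from GENCODE on GRCh38, matched by name for 15422 rows and by another symbol for 256, and GC content was known for 95.1% of tested genes. Promoters came from RefSeq (GRCh38.p14). Named are the called channel genes, the 10 highest per kilobase, the 10 with the smallest p that were not called, those at 3 counts or fewer in a group, the highest of each role and those around the limit of 60 counts. Further genes named with the families were chosen after their values were seen. The channel genes and lists were chosen with earlier results of these data known. Values of a few genes are left out of the text. Intervals cover counting error only, since reads copied by PCR are not independent molecules.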

Additional observations from a re-analysis of the deposited data

How the results depend on the processing

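The number of channel genes called higher (3 as reported) was 5 with DESeq2, 12 with limma-voom, 5 with GC correction and 9 without sgControl library 2 and sgRFX6 library 3. It was 0 to 3 with each library left out. The number called lower (3 as reported) was 5 with DESeq2, 11 with limma-voom, 1 with a filter of 1 CPM in 3 libraries (which removes KCNK3 and CACNA1S), 6 with GC correction and 7 without both libraries, and 1 to 3 with each library left out. Calls in the other transport lists (6 as reported) were 16 with DESeq2, 47 with limma-voom, 23 with GC correction, 38 without both libraries and 1 to 10 with each library left out. Of all tested genes, 5.44% were called with DESeq2, 31.1% with limma-voom, 11.5% with GC correction and 3.69% with the 1 CPM filter. The share was 25.2% without both libraries and 1.62% to 5.52% with each library left out, beside 3.74% as reported. The cause of these shifts was not tested. With the replicate number as a block, 5 channel genes were called lower and 10 transport genes were called, beside 5.05% of all tested genes. With GC correction and the block together the numbers were 5 and 14, beside 6.85% of all tested genes. The numbers share no stated batch, their libraries' deviations correlated at -0.406, 0.174 and -0.0867, and KCNK1 lost its call under the block alone (adjusted p = 0.0659).

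Of 428 values of 24 named genes under these alternatives, 18 changed sign, none of them for a gene called in the reported fit. KCNJ14 took 0.02 with limma-voom, 0.01 with the 1 CPM filter, 0.00 with GC correction with or without the block and 0.03 without both libraries. KCNN4 took 0.50 with limma-voom, 0.02 with GC correction and the block, and 0.55 without both libraries. Regional correction gave -0.02 for CACNA1H and -0.01 for CACNB3. Leaving out 1 library gave -0.12 to 0.25 for CACNB3, -0.28 to 0.34 for KCNN4, -0.11 to 0.08 for KCNJ14 and -0.01 to 0.29 for KCNK5.

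Depth limits the low genes, since a channel gene at 60 counts in all averages 10 per library. The 61 rows below that limit were not examined beyond the 3 nearest to it.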
